A study of Homo sapiens with 26 samples.

Results

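The genes described here are 8 recurrent tumor driver genes of renal carcinoma, namely PBRM1, ARID1A, SETD2, KDM5C, BAP1, STAG2, PIK3CA and MTOR, chosen by name from the genes of the series. All 8 were listed in each of the 3 tables of values, out of 12239 genes listed in any table, and all 8 passed the filter on low values in each table. They were followed in 786-O cells, an established human line of clear cell renal carcinoma without working VHL, after transfection of single siRNAs. The 26 libraries made 13 groups of 2. Of these, 10 groups received 1 siRNA each, which were siRNA 4 and siRNA 6 against SART1, siRNA 1 and siRNA 4 against DDX39A, siRNA 3 and siRNA 9 against SARNP, siRNA 6 and siRNA 7 against FIBP, and siRNA 5 and siRNA 6 against TMEM259. The other 3 groups received a negative control siRNA, 1 pair of libraries for SART1, 1 pair shared by DDX39A and SARNP, and 1 pair shared by FIBP and TMEM259. Every group carried the same transfection reagent (DharmaFECT 1), was split at 24 h and was harvested at 48 h after transfection. The labels do not name separate transfections behind the 2 libraries of a group, so the spread between these libraries may be technical. The p-values rest on that spread over all groups of a table, drawn strongly toward a trend over all genes. They therefore do not measure the spread of 1 gene within 1 group. All siRNAs of a table were compared with the same 2 control libraries, so errors in those controls enter each of its comparisons.

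Clear cell renal carcinoma commonly loses chromatin regulators of the short arm of chromosome 3 together with VHL. PBRM1 is the polybromo subunit of the PBAF chromatin remodeler, SETD2 is the enzyme that trimethylates lysine 36 of histone H3 along transcribed genes, and BAP1 is a deubiquitinase that removes ubiquitin from histone H2A. KDM5C demethylates lysine 4 of histone H3, ARID1A is a DNA-binding subunit of the BAF remodeler, and STAG2 is a subunit of the cohesin ring. These 6 are known as tumor suppressors, whereas PIK3CA, the catalytic subunit alpha of PI3-kinase, and MTOR, the kinase of the mTOR complexes, are growth-signaling kinases that tumors activate by mutation. The 5 knocked-down genes act elsewhere: SART1 is a protein of the U4/U6.U5 tri-snRNP of the spliceosome, DDX39A and SARNP belong to the mRNA export machinery, FIBP binds fibroblast growth factor 1 inside cells, and TMEM259 is a membrane protein of the endoplasmic reticulum.

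Gene reads per library ranged from 8966609 to 26128173. A driver gene had 330 to 3709 reads in a library, which gives a counting error of 1.64% to 5.50%. Each siRNA lowered its own target, to between 8.48% of the control mean (SARNP siRNA 9) and 48.3% (TMEM259 siRNA 6). The genes PAX8, PAX2, CDH6, KRT8, KRT18, VIM, MME and ANPEP, taken as markers of a renal carcinoma line, were listed in all 3 tables. PAX2 was low in the FIBP and TMEM259 table, at 93.6 to 134 normalized units. PTPRC, CD3E, CD14, PECAM1, CDH5 and ALB, which mark blood, endothelial and liver cells, were listed in none, and the fibroblast collagen COL1A1 stood between 24.4 and 97.5 normalized units. Values below are normalized values per gene, that is, read counts divided by a size factor per library. Changes are log2 differences of value + 1 against the control libraries of the same table, with the standard error (SE) of a limma model, and a gene is said to have risen or fallen only at a Benjamini-Hochberg adjusted p below 0.05 over all genes of its table. The counts are per gene and do not separate splice forms. Shares of all genes called count either direction unless a direction is named, so they do not show how common a lean to 1 direction is. In bulk RNA, fewer cells of a kind and less RNA per cell cannot be told apart. RNA level alone was measured, and mutation, protein and chromatin marks were not.

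The driver genes moved by modest amounts, and no driver gene moved the same way with the siRNAs of all 5 targets. Of the 80 combinations of a driver gene and an siRNA, 35 were called, 14 higher and 21 lower, and none of the 80 passed a 2-fold change. The highest value was SETD2 with SART1 siRNA 6, at a log2 change of 0.54, and the lowest was PBRM1 with SARNP siRNA 9, at -0.55. The share called was 43.75%, beside 40.1% over all genes tested and siRNAs in the same models. Those genes were not matched to the driver genes in level, and the shares were not tested. The driver genes' median size of change was below that of all genes with FIBP siRNA 6 (0.03 beside 0.13) and siRNA 7 (0.07 beside 0.16). It was also below with TMEM259 siRNA 5 (0.06 beside 0.13) and DDX39A siRNA 4 (0.08 beside 0.21). With SARNP siRNA 9 it was above (0.29 beside 0.26), and with the other siRNAs the values were close. MTOR and BAP1 had no call in the upward direction, with 3 and 5 calls downward. SETD2 and ARID1A had 3 calls upward and 1 downward each, STAG2 had 1 upward and 4 downward, KDM5C had 3 each way, and PBRM1 and PIK3CA had 2 each way. With 2 libraries a group, knockdown libraries that all lie to 1 side of both controls are common and are no call by themselves. With SARNP siRNA 3 this held for all 8 driver genes, of which 4 were called. With FIBP siRNA 6 it held for 3, of which 1 was called. The share over all genes is not given here.

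**Figure D1:**
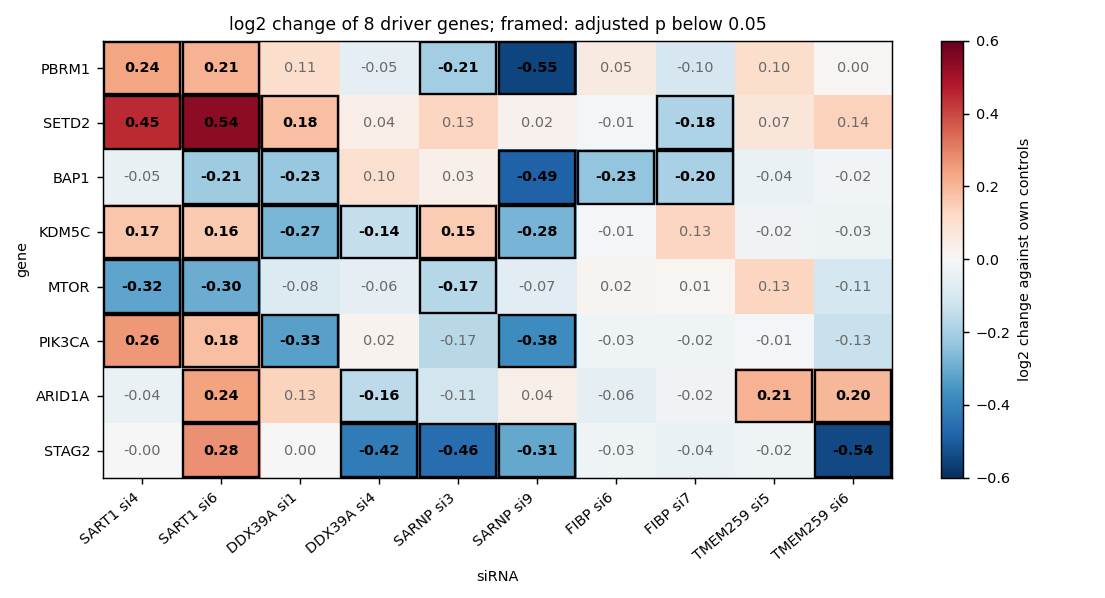
Heat map of the log2 change of each driver gene (rows) with each siRNA (columns) against the 2 control libraries of its own table, red for higher and blue for lower, with the value in each cell. Framed cells in bold have an adjusted p below 0.05 (35 of 80), and the values run from -0.55 for PBRM1 with SARNP siRNA 9 to 0.54 for SETD2 with SART1 siRNA 6.

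**Figure D2:**
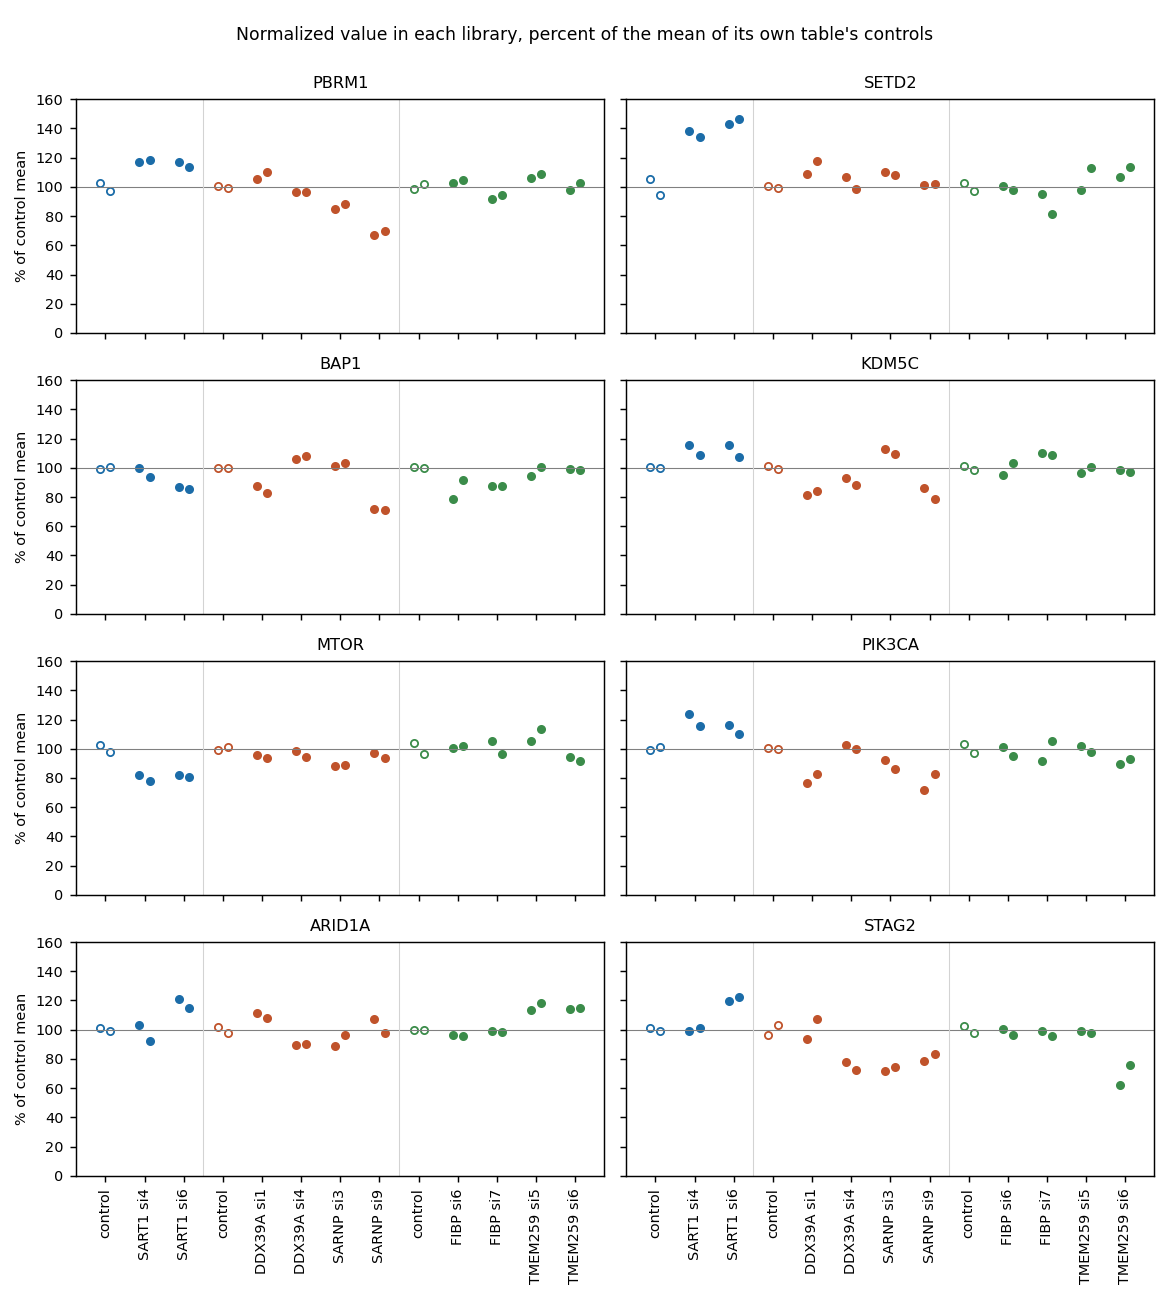
Normalized value of each driver gene in every library, as a percent of the mean of the 2 controls of its own table (y axis, starting at 0), with open circles for controls and filled circles for siRNA libraries, blue for the SART1 table, orange for DDX39A and SARNP, and green for FIBP and TMEM259. The 4 SART1 libraries of SETD2 all sit above their controls and the 4 of MTOR all sit below them.

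In control cells the driver genes were ordered by their level per length, in RPKM (reads scaled to the exon length in kilobases and to the gene reads of the library), which can be compared between genes, over the 6 control libraries. Exon lengths came from GENCODE v29 on GRCh38, whereas the reads were counted on hg19 with an annotation that is not given in the sources used here, and the 3 tables were normalized apart. BAP1 was highest with a median level of 27.8 (range 26.4 to 30.0), followed by STAG2 at 22.0 (19.1 to 24.5). MTOR at 16.1 (14.2 to 19.1) and KDM5C at 15.2 (13.4 to 17.3) overlapped in range. SETD2 at 10.6 (9.41 to 12.1), ARID1A at 9.48 (8.95 to 13.7) and PBRM1 at 8.62 (7.49 to 9.64) also overlapped. PIK3CA was lowest at 4.34 (3.72 to 4.89), below every other driver gene in every control library. The highest and lowest of these medians thus belong to a tumor suppressor and to a growth-signaling kinase, with MTOR between them.

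After SART1 knockdown, SETD2, PBRM1, PIK3CA and KDM5C rose with each SART1 siRNA, MTOR fell with each, and ARID1A, STAG2 and BAP1 were called with siRNA 6 alone. In counts, siRNA 4 raised 4 of 8 driver genes and lowered 1, beside 57.7% of all genes called and 29.5% called higher. SART1 siRNA 6 raised 6 of 8 and lowered 2, beside 62.9% of all genes called and 32.5% called higher. The median log2 change of the 8 driver genes was 0.08 and 0.19 with siRNA 4 and siRNA 6, beside -0.01 and -0.00 for all genes tested, and their median size of change was 0.20 and 0.23, beside 0.22 and 0.25 for all genes. KDM5C lost its call with both SART1 siRNAs under quantile normalization (log2 changes of 0.09 and 0.05).

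The start regions of the 5 genes called with each SART1 siRNA are shown because both siRNAs called them, 4 higher and MTOR lower. They are the bases from 250 before to 50 after a transcription start in RefSeq (GRCh38.p14), 5′ to 3′ on the strand of the gene. RefSeq start regions were found for 7 of the 8 driver genes, all but BAP1, with 2 starts for PBRM1. Capitals mark exact matches, on either strand, to 5 short words: CCGGAA (the core bound by ETS factors), GGGCGG (the GC box bound by SP factors), CCAAT (bound by NF-Y), CACGTG (an E-box) and AAGATGG (part of the YY1 site), and matches that overlap are capitalized as 1 run.
SETD2, chr3:47164064-47164363, strand -: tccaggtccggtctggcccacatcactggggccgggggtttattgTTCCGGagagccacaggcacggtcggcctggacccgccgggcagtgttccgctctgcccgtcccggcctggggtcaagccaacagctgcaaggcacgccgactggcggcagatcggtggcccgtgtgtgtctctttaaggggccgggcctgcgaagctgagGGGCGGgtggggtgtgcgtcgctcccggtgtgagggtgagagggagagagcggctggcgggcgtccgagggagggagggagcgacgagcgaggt
PBRM1, one start, chr3:52685864-52686163, strand -: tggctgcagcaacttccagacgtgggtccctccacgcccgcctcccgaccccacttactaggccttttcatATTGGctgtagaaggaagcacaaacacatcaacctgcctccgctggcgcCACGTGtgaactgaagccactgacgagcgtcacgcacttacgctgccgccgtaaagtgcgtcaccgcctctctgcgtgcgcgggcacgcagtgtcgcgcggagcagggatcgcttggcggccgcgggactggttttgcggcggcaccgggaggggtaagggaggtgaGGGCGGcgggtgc
PBRM1, other start, chr3:52685550-52685849, strand -: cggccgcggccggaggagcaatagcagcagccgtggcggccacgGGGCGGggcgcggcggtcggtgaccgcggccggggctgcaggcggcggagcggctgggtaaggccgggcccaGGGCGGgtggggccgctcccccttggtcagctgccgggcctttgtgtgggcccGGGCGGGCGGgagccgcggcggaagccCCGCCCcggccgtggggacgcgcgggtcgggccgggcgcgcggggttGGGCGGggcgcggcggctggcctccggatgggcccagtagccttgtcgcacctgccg
KDM5C, chrX:53225158-53225457, strand -: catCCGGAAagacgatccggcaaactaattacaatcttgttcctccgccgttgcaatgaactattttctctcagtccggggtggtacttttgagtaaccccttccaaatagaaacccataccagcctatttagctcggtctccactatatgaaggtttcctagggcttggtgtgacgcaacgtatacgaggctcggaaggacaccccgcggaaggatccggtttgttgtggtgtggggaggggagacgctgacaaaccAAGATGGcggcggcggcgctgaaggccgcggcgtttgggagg
PIK3CA, chr3:179148107-179148406, strand +: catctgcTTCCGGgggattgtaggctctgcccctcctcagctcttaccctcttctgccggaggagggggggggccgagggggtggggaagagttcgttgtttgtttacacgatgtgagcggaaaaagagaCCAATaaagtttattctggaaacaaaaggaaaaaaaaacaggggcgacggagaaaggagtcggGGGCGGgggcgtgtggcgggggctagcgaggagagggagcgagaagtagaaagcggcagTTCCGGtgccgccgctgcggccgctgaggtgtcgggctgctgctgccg
MTOR, chr1:11262502-11262801, strand -: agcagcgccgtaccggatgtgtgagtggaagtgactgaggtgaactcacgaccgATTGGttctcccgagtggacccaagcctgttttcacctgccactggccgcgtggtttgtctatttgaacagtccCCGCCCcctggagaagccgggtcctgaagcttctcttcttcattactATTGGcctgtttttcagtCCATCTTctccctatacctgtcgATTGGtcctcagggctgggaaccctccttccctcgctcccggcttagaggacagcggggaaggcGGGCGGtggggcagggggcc
GGGCGG was found in 4 of these 5 genes, and 45.0% of all 35116 RefSeq start regions of this length hold it. CCGGAA was found in SETD2, KDM5C and PIK3CA (17.2% of all start regions), and CCAAT in PBRM1, PIK3CA and MTOR (34.6%). The E-box was found in PBRM1 alone (7.26%) and AAGATGG in KDM5C and MTOR (5.84%). Whether any word goes with the direction of change was not tested. GGGCGG was also present in ARID1A and in each of 3 starts of STAG2, which were called with SART1 siRNA 6 alone. Some starts of STAG2 held CCAAT or AAGATGG as well. PBRM1 was counted over 2 starts, whereas the shares are per start region. The regions shown held 54.3% (KDM5C) to 82.3% (PBRM1, other start) G and C, beside a median of 58.7% over all start regions. The start regions behind the shares were not matched in G and C or limited to expressed genes, so the shares do not show enrichment. These are matches of letters and not measured binding.

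SETD2 showed the largest rise of any driver gene. Its control libraries in the SART1 table held 2009 and 1792 normalized units, its siRNA 4 libraries 2633 and 2543, and its siRNA 6 libraries 2722 and 2789. All 4 knockdown libraries lay above both controls. The rise was 36.2% with siRNA 4 (log2 change 0.45 ± 0.05 SE, adjusted p = 2.90e-08) and 45.0% with siRNA 6 (0.54 ± 0.05 SE, adjusted p = 1.16e-09). The size of the change with siRNA 6 stood at the 83.0 percentile of all genes, so larger changes were common in these cells. Outside SART1, SETD2 was called higher with DDX39A siRNA 1 (1368 and 1485 against controls of 1267 and 1251, a rise of 13.4%), but not without control replicate 2 or without replicate 2 of that siRNA. It was called lower with FIBP siRNA 7 (1007 and 863 against 1090 and 1028, adjusted p = 0.0235). That FIBP call was lost in DESeq2, without control replicate 1 and without FIBP siRNA 7 replicate 2, where the log2 change went to -0.07.

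The list of 23 other genes that write, read or remove methylation of lysine 36 of histone H3 had calls in both directions. With SART1 siRNA 4, 6 of 23 rose and 8 fell, and with siRNA 6, 8 rose and 8 fell, with median log2 changes of -0.07 and -0.04. Of all genes, 57.7% and 62.9% were called with these SART1 siRNAs. With the DDX39A siRNAs 4 rose and 3 fell (siRNA 1) and 7 rose and 8 fell (siRNA 4), beside 33.2% and 49.0%. SARNP siRNA 3 raised 6 and lowered 3, and siRNA 9 raised 6 and lowered 7, beside 41.3% and 58.4%. The FIBP and TMEM259 siRNAs raised 1 to 4 and lowered 0 to 4, beside 19.4% to 34.1%. MORF4L1, a chromodomain reader of this mark, stood at 3952 units in SART1 controls and rose by 0.36 ± 0.04 SE and 0.54 ± 0.04 SE with siRNA 4 and siRNA 6. MTF2, a Polycomb-like protein with a Tudor domain, rose by 0.46 and 0.51 with the SARNP siRNAs, from 743 to 1024 and 1060 units. The de novo DNA methyltransferase DNMT3B rose by 0.35 and 0.49 with the DDX39A siRNAs, from 213 to 271 and 300.1 units, and its call with siRNA 1 was lost in DESeq2, without control replicate 1 and without replicate 1 of that siRNA.

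PBRM1 rose after SART1 knockdown and fell after SARNP knockdown. In the SART1 table it went from 1452 and 1375 in controls to 1651 and 1677 with siRNA 4 and 1651 and 1610 with siRNA 6, with no overlap between knockdown and control libraries. These are rises of 17.7% (log2 change 0.24 ± 0.05 SE, adjusted p = 0.000163) and 15.4% (0.21 ± 0.05 SE, adjusted p = 0.000567). In size they stood at the 52.9 and 43.0 percentile of all genes, so changes of this size were common with these siRNAs. In the DDX39A and SARNP table controls held 971 and 961, SARNP siRNA 3 817 and 855, and SARNP siRNA 9 646 and 673. The SARNP siRNA 9 libraries were the lowest for PBRM1 in that table. PBRM1 fell by 13.4% with siRNA 3 (log2 change -0.21 ± 0.06 SE, adjusted p = 0.00399) and by 31.7% with siRNA 9 (-0.55 ± 0.06 SE, adjusted p = 2.87e-10), and siRNA 9 lowered it further than siRNA 3 by 0.34 ± 0.06 SE (difference of -0.34, adjusted p = 3.55e-06). The siRNA 3 call was lost without SARNP siRNA 3 replicate 1 (adjusted p = 0.0619). PBRM1 was not called with any DDX39A, FIBP or TMEM259 siRNA, with log2 changes of -0.10 to 0.11.

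ARID1A, of the related BAF complex, had another pattern, and it was the 1 driver gene called higher with each TMEM259 siRNA. Its controls held 1084 and 1083, its siRNA 5 libraries 1227 and 1281, and its siRNA 6 libraries 1240 and 1248, all 4 above both controls. The log2 changes were 0.21 ± 0.05 SE (a rise of 15.7%, adjusted p = 0.00271) and 0.20 ± 0.05 SE (adjusted p = 0.00553), and the first was lost without TMEM259 siRNA 5 replicate 2 (adjusted p = 0.0551). TMEM259 itself was left at 30.3% with siRNA 5 and 48.3% with siRNA 6. SART1 siRNA 6 raised ARID1A by 18.1%, from 2149 and 2101 to 2574 and 2447, whereas siRNA 4 gave 2187 and 1954, which overlapped the controls. DDX39A siRNA 4 lowered it by 10.3%, from 1684 and 1614 to 1470 and 1487, a call lost in DESeq2, without control replicate 1 and without DDX39A siRNA 4 replicate 1. Its paralog ARID1B, the alternative ARID subunit of BAF, was not called with either TMEM259 siRNA (log2 changes of -0.06 and 0.11) or either SART1 siRNA (-0.03 and -0.05). ARID1B was called lower with DDX39A siRNA 1 (-0.19) and SARNP siRNA 3 (-0.18), with which ARID1A was not called. Each of these ARID1B calls was lost in DESeq2.

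Among 24 other subunits of the SWI/SNF remodelers, ARID1B included, both directions were seen with every siRNA except TMEM259 siRNA 5. It raised 1 and lowered none, beside 22.8% of all genes called. SART1 siRNA 4 raised 3 and lowered 6, and siRNA 6 raised 5 and lowered 9, beside 57.7% and 62.9%. DDX39A siRNA 1 raised 6 and lowered 4, and siRNA 4 raised 6 and lowered 2, beside 33.2% and 49.0%. SARNP siRNA 3 raised 6 and lowered 3, and siRNA 9 raised 8 and lowered 11, beside 41.3% and 58.4%. The FIBP siRNAs and TMEM259 siRNA 6 raised 2 to 4 and lowered 2 to 5, beside 19.4% to 34.1%. SMARCD3, an accessory subunit, rose with the DDX39A siRNAs from 133 to 261 and 194 units (log2 changes of 0.96 ± 0.12 SE and 0.54 ± 0.12 SE). The ATPase SMARCA2 fell with the SART1 siRNAs from 2399 to 1913 and 1736 units (-0.33 and -0.47). The core subunit SMARCC1 fell with the DDX39A siRNAs from 2886 to 1988 and 2606 (-0.54 and -0.15), and the second of these calls was lost without control replicate 2 and without DDX39A siRNA 4 replicate 2.

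BAP1 was lowered by FIBP knockdown and by single siRNAs of other targets. FIBP controls held 1302 and 1294, siRNA 6 libraries 1024 and 1188, and siRNA 7 libraries 1133 and 1133. All 4 knockdown libraries lay below both controls, though the siRNA 6 libraries differed from each other. BAP1 fell by 0.23 ± 0.06 SE on the log2 scale with siRNA 6 (adjusted p = 0.00177) and by 12.7% with siRNA 7 (-0.20 ± 0.06 SE, adjusted p = 0.00604), and the siRNA 6 call was lost without FIBP siRNA 6 replicate 1 (adjusted p = 0.194). With SARNP siRNA 9 it fell by 28.6%, from 1489 and 1495 to 1070 and 1061 (log2 change -0.49 ± 0.05 SE, adjusted p = 2.54e-10), whereas siRNA 3 libraries held 1511 and 1541, above the controls but not called (adjusted p = 0.652). The 2 SARNP siRNAs differed by 0.52 on the log2 scale (siRNA 9 minus siRNA 3 of -0.52 ± 0.05 SE, adjusted p = 3.43e-11). DDX39A siRNA 1 lowered BAP1 by 14.7%, to 1308 and 1239, and siRNA 4 gave 1585 and 1609, with a difference between these siRNAs of 0.33 ± 0.05 SE. SART1 siRNA 6 lowered it to 2189 and 2165 from 2508 and 2543 (log2 change -0.21), and the TMEM259 siRNAs gave no call (log2 changes of -0.04 and -0.02).

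Of 16 other genes of the BAP1 complex and of the Polycomb ligases that add ubiquitin to histone H2A, 7 rose and 3 fell with SART1 siRNA 4, and 8 rose and 3 fell with siRNA 6, beside 57.7% and 62.9% of all genes called and 29.5% and 32.5% called higher. Their median log2 changes were 0.12 and 0.15, beside -0.01 and -0.00 for all genes. DDX39A siRNA 1 raised 2 and lowered 2, siRNA 4 raised 4 and lowered 5, SARNP siRNA 3 raised 3 and lowered 4, and siRNA 9 raised 4 and lowered 6. In that order 33.2%, 49.0%, 41.3% and 58.4% of all genes were called. The FIBP and TMEM259 siRNAs raised 1 to 3 and lowered 0 to 2, beside 19.4% to 34.1% of all genes. FOXK1, a forkhead factor that binds BAP1, rose from 746 to 980 and 1346 units with the SART1 siRNAs (log2 changes of 0.39 ± 0.06 SE and 0.85 ± 0.06 SE). The Polycomb genes PCGF1 (494 to 673 and 631 units) and RNF2 (630.3 to 780 and 845 units), which make the opposing ligase, rose with the same siRNAs by 0.45 and 0.35 and by 0.31 and 0.42.

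KDM5C was called with 6 of 10 siRNAs, of which 2 calls were lost in DESeq2 and 2 under quantile normalization, and the 2 SARNP siRNAs moved it in opposite directions. In the DDX39A and SARNP table its controls held 1513 and 1479, SARNP siRNA 3 1690 and 1638, and SARNP siRNA 9 1293 and 1172. It rose by 11.2% with siRNA 3 (log2 change 0.15 ± 0.05 SE, adjusted p = 0.0216) and fell by 17.6% with siRNA 9 (-0.28 ± 0.05 SE, adjusted p = 3.27e-05). The siRNA 3 call was lost in DESeq2, without either control library and without SARNP siRNA 3 replicate 1, whereas the difference of -0.43 ± 0.05 SE between these siRNAs (adjusted p = 8.21e-09) was called in every alternative. DDX39A siRNA 1 lowered KDM5C by 17.2%, to 1214 and 1262, and siRNA 4 by 9.43%, to 1392 and 1318, all below both controls. The siRNA 4 call was lost in DESeq2, without either control library and without DDX39A siRNA 4 replicate 2. In the SART1 table it went from 2418 and 2403 to 2790 and 2628 with siRNA 4 (12.4%) and to 2788 and 2588 with siRNA 6 (11.5%), and the second was also lost without SART1 siRNA 6 replicate 1.

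The paralogs of KDM5C shared some of its calls and not others. KDM5A rose from 1342 to 1771 and 1777 units with the SART1 siRNAs (log2 changes of 0.40 ± 0.05 SE each), as KDM5C did, and KDM5B fell with siRNA 4 (-0.23) and was not called with siRNA 6 (-0.08). KDM5A fell with SARNP siRNA 9 (-0.22) and KDM5B with DDX39A siRNA 1 (-0.44), the siRNAs with which KDM5C fell by 0.28 and 0.27 on the log2 scale. KDM5B, like KDM5C, was called in opposite directions by the SARNP siRNAs, from 685 to 940 units with siRNA 3 (0.46) and 597 with siRNA 9 (-0.20). KDM5B also fell with both FIBP siRNAs (-0.42 and -0.22), with which KDM5C was not called (-0.01 and 0.13), and its FIBP siRNA 7 call was lost in 4 alternatives, DESeq2 among them. The list of 19 other genes that write or erase methylation of lysine 4 of histone H3 includes KDM5A and KDM5B. Of these 19, 6 rose and 6 fell with each SART1 siRNA, beside 57.7% and 62.9% of all genes called. SARNP siRNA 9 raised 4 and lowered 9, with a median of -0.16, beside 58.4% called and 29.4% called lower. SARNP siRNA 3 raised 3 and lowered 2, beside 41.3%. The DDX39A siRNAs raised 3 and 3 and lowered 3 and 2, beside 33.2% and 49.0%. With the FIBP and TMEM259 siRNAs 1 to 2 rose and 2 to 5 fell, beside 19.4% to 34.1%. RBBP5, a core subunit of the methyltransferase complexes, rose from 887 to 1254 and 1316 units with the SART1 siRNAs (0.50 and 0.57), and WDR82, a subunit of the SETD1 complexes, rose from 1557 to 1988 and 1909 units with the SARNP siRNAs (0.35 and 0.29).

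STAG2 had the deepest fall among the driver genes outside SARNP, and that fall was seen with 1 of 2 siRNAs. TMEM259 siRNA 6 libraries held 1129 and 1377 against controls of 1853 and 1774, whereas siRNA 5 libraries held 1797 and 1770. The fall with siRNA 6 was 30.9% (log2 change -0.54 ± 0.06 SE, adjusted p = 1.25e-09), a size at the 96.5 percentile of all genes for that siRNA. With siRNA 5 the log2 change was -0.02 (95% interval -0.14 to 0.09), and the 2 siRNAs differed by -0.52 ± 0.06 SE (siRNA 6 minus siRNA 5, adjusted p = 1.12e-09). TMEM259 siRNA 6 left more of its target mRNA (48.3%) than siRNA 5 did (30.3%). DDX39A gave a like split: siRNA 4 lowered STAG2 by 25.1%, from 1921 and 2057 to 1545 and 1433, and siRNA 1 gave 1857 and 2138, on either side of the controls.

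SARNP was the target with which STAG2 was called lower by each siRNA. SARNP siRNA 3 libraries held 1423 and 1474 and siRNA 9 libraries 1557 and 1660, against controls of 1921 and 2057. The falls were 27.2% (log2 change -0.46 ± 0.06 SE, adjusted p = 3.15e-08) and 19.1% (-0.31 ± 0.06 SE, adjusted p = 2.14e-05). SART1 siRNA 6 raised STAG2 by 21.1%, from 3001 and 2942 to 3555 and 3641, and siRNA 4 left it at 2939 and 2999 (log2 change -0.00, 95% interval -0.08 to 0.08). The alternative cohesin subunit STAG1 was not called with TMEM259 siRNA 6 (0.12), DDX39A siRNA 4 (-0.06) or the SARNP siRNAs (0.07 and -0.13), each of which lowered STAG2. It fell by 0.39 ± 0.06 SE with DDX39A siRNA 1, from 1126 to 859 units, with which STAG2 was not called. STAG1 was also called lower with SART1 siRNA 6 (-0.13) and TMEM259 siRNA 5 (-0.15), and each of these calls was lost in DESeq2.

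Of 17 other cohesin subunits and regulators, 9 rose and 2 fell with SART1 siRNA 4, and 8 rose and 3 fell with siRNA 6. Their median log2 changes were 0.15 and 0.07, and STAG1 is among the 17. These counts stand beside 57.7% and 62.9% of all genes called and 29.5% and 32.5% called higher. DDX39A siRNA 4 raised 3 and lowered 9 (median -0.15), beside 49.0% of all genes called in either direction. SARNP siRNA 9 raised 2 and lowered 8 (median -0.14), beside 58.4% called and 29.4% called lower. Whether the list differs from other genes was not tested. DDX39A siRNA 1 raised 1 and lowered 3, beside 33.2% of all genes called, and SARNP siRNA 3 raised 3 and lowered 2, beside 41.3%. With the FIBP and TMEM259 siRNAs 0 to 3 rose and 0 to 6 fell, beside 19.4% to 34.1%. ESCO1, an acetyltransferase of the cohesin ring, rose from 436 to 764 and 749 units with the SART1 siRNAs (log2 changes of 0.80 ± 0.07 SE and 0.78 ± 0.07 SE). WAPL, which releases cohesin from DNA, rose from 3022 to 3853 and 4522 units (0.35 and 0.58). CDCA5, which holds the sister chromatids together against WAPL, fell with the DDX39A siRNAs from 2067 to 1755 and 1356 units (-0.24 and -0.61).

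MTOR fell after SART1 knockdown by nearly the same amount with each siRNA. Controls held 3610 and 3440, siRNA 4 libraries 2901 and 2752, and siRNA 6 libraries 2892 and 2843, with all knockdown libraries below both controls. The log2 changes were -0.32 ± 0.04 SE (adjusted p = 5.29e-07) and -0.30 ± 0.04 SE (a fall of 18.7%, adjusted p = 1.12e-06), and the 2 siRNAs differed by 0.02 ± 0.04 SE (adjusted p = 0.724). MTOR was otherwise called with SARNP siRNA 3 alone, where it fell by 11.2%, from 2244 and 2284 to 2001 and 2019. With the TMEM259 siRNAs it stood at 1831 and 1980 (siRNA 5) and 1643 and 1595 (siRNA 6) around controls of 1810 and 1676. Neither was called against controls, and siRNA 6 was below siRNA 5 (difference -0.23 ± 0.05 SE, adjusted p = 0.000362).

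Among 28 other genes of the mTOR complexes and their regulators, the SART1 siRNAs gave unlike counts, with 11 raised and 8 lowered by siRNA 4 and 6 raised and 14 lowered by siRNA 6. Of all genes, 57.7% and 62.9% were called with these SART1 siRNAs. DDX39A siRNA 1 raised 3 and lowered 8, and siRNA 4 raised 12 and lowered 2, beside 33.2% and 49.0%. SARNP siRNA 3 raised 12 and lowered 4, and siRNA 9 raised 7 and lowered 7, beside 41.3% and 58.4%. With the FIBP and TMEM259 siRNAs 2 to 7 rose and 3 to 7 fell, beside 19.4% to 34.1%. TSC2, an inhibitor of the pathway, fell with the SART1 siRNAs from 1012 to 661 and 636 units (log2 changes of -0.62 ± 0.07 SE and -0.67 ± 0.07 SE), and ULK1, the autophagy kinase that mTOR restrains, fell from 363 to 244 and 230.4 units (-0.57 and -0.65). SESN1, a sestrin that restrains the pathway, rose with the SARNP siRNAs from 130 to 189 and 242 units (0.52 and 0.88), and the first of these calls was lost without SARNP siRNA 3 replicate 2.

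PIK3CA rose after SART1 knockdown and fell with single siRNAs of DDX39A and SARNP. It was the lowest expressed of the driver genes, so its errors were the largest, with SE of 0.06 to 0.08. PIK3CA has a partial copy elsewhere in the genome, and whether reads were divided with it is not given in the sources used here. SART1 controls held 787 and 803, siRNA 4 libraries 985 and 920 and siRNA 6 libraries 924 and 877, all above both controls. The log2 changes were 0.26 ± 0.06 SE (adjusted p = 0.000520) and 0.18 ± 0.06 SE (a rise of 13.3%, adjusted p = 0.0098), the second lost in DESeq2, without control replicate 1 and without SART1 siRNA 6 replicate 1. DDX39A siRNA 1 lowered it by 20.3%, from 571 and 567 to 435 and 472, and siRNA 4 gave 583 and 569.7, close to the controls (difference between the siRNAs of 0.35 ± 0.08 SE, adjusted p = 0.000221). SARNP siRNA 9 lowered it by 22.9%, to 407 and 471, and siRNA 3 libraries held 524 and 491 (-10.8%, adjusted p = 0.0771).

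The other catalytic subunits of PI3-kinase shared some calls with PIK3CA and not others. PIK3CB rose with the SART1 siRNAs, as PIK3CA did, from 2170.2 to 2458 and 2347 units (log2 changes of 0.18 and 0.11), and its siRNA 6 call was lost in 6 alternatives, each library left out among them. PIK3CB fell by 0.87 ± 0.06 SE with DDX39A siRNA 4, from 1342 to 731 units, which was the largest change of any driver gene or paralog and came with the siRNA that left PIK3CA uncalled. DDX39A siRNA 1 left PIK3CB uncalled (1408 units, log2 change 0.07). PIK3CD fell with the SART1 siRNAs from 838 to 571 and 650.3 units (-0.55 and -0.37), with which PIK3CA rose, and it was called in opposite directions by the SARNP siRNAs (-0.49 and 0.27). The second of these SARNP calls was lost without control replicate 2. The list of 25 pathway genes other than PIK3CA includes PIK3CB and PIK3CD. Of these 25, SART1 siRNA 4 raised 6 and lowered 9, and siRNA 6 raised 8 and lowered 8. Beside these counts, 57.7% and 62.9% of all genes were called. With DDX39A siRNA 1, 4 rose and 4 fell, and with siRNA 4, 6 rose and 4 fell, beside 33.2% and 49.0%. SARNP siRNA 3 raised 7 and lowered 6, and siRNA 9 raised 7 and lowered 10, beside 41.3% and 58.4%. With the FIBP and TMEM259 siRNAs 2 to 6 rose and 3 to 8 fell, beside 19.4% to 34.1%. The insulin receptor adaptor IRS2 fell with the SART1 siRNAs from 4169 to 2512 and 2565 units (-0.73 ± 0.04 SE and -0.70 ± 0.04 SE). The transcription factor FOXO1, which AKT inhibits, rose from 191 to 247 and 320 units (0.38 and 0.75), the first call being lost without control replicate 1, and PIK3R4, the regulatory subunit of the VPS34 kinase, rose from 1484 to 1957 and 2226 units (0.40 and 0.58).

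**Figure D3:**
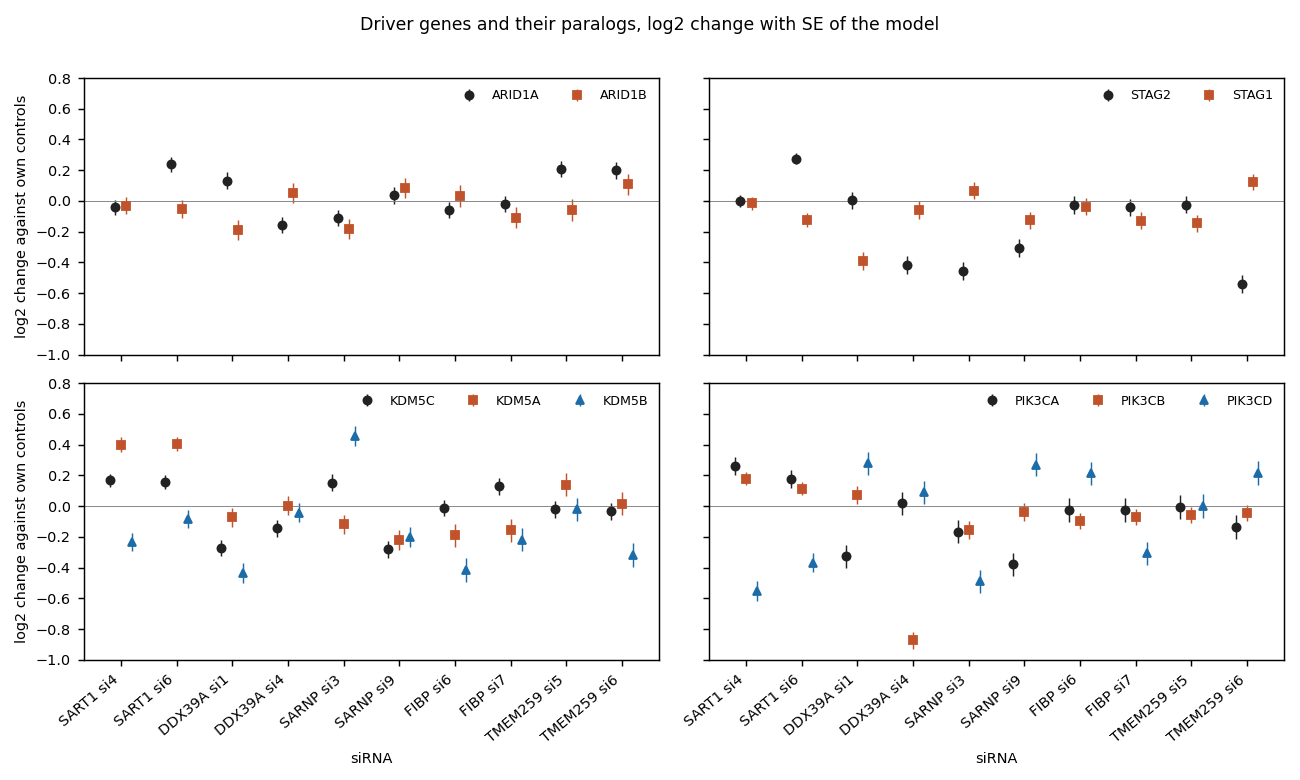
Log2 change against own controls (y axis) with each siRNA (x axis) for ARID1A, STAG2, KDM5C and PIK3CA (black) and their paralogs (orange and blue), with bars for the SE of the model. PIK3CB with DDX39A siRNA 4 is the lowest point at -0.87, and STAG2 stands well below STAG1 with TMEM259 siRNA 6.

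Set by target, the driver genes were called most often with SART1 and SARNP and least with FIBP and TMEM259, as were genes in general. Depth and remaining target mRNA differed between targets, so these counts do not rank the strength of effect. Gene reads per library were 21710821 to 26128173 for SART1 and 9959064 to 18086176 for DDX39A and SARNP. They were 8966609 to 17018483 for FIBP and TMEM259. DDX39A siRNA 1 had 4 of 8 called (1 higher, 3 lower) beside 33.2% of all genes, and siRNA 4 had 3 (all lower) beside 49.0%. SARNP siRNA 3 had 4 called (1 higher, 3 lower) beside 41.3%. SARNP siRNA 9 had 5 called beside 58.4% of all genes in either direction. All 5 were lower, beside 29.4% of all genes called lower, and the median log2 change of the 8 driver genes was -0.29 beside -0.00 for all genes. FIBP siRNA 6 had 1 called beside 22.6% and siRNA 7 had 2 beside 34.1%, all lower. TMEM259 siRNA 5 had 1 called beside 22.8% and siRNA 6 had 2 beside 19.4%. PIK3CA was called with neither FIBP nor TMEM259 siRNAs, nor were PBRM1, KDM5C and MTOR, and the largest log2 change among those 16 values was -0.13 in the downward and 0.13 in the upward direction.

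**Figure D4:**
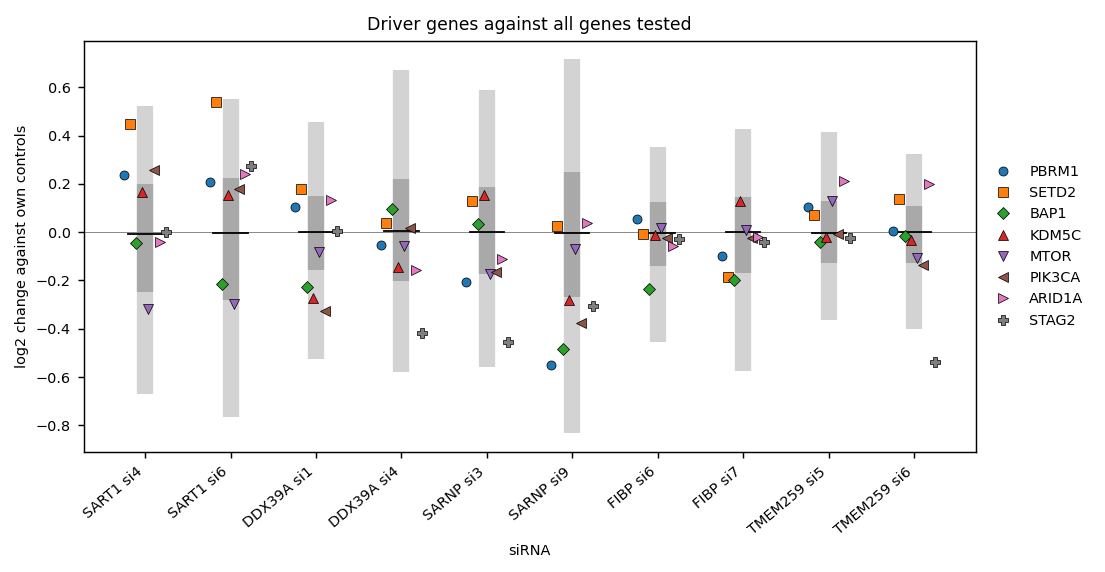
Log2 change of the 8 driver genes (colored symbols) with each siRNA (x axis) over all genes tested, with the light bar from the 5th to the 95th percentile, the dark bar from the 25th to the 75th and the black line at the median. Most symbols lie within the light bars, and STAG2 with TMEM259 siRNA 6 at -0.54 lies below its bar.

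The 2 siRNAs of a target often differed from each other, in these genes and in genes in general. Of 40 such differences in driver genes, 21 were called, beside 32.1% to 64.1% of all genes, depending on the target. With SART1, 3 of 8 driver genes differed between siRNAs, beside 38.5% of all genes, and these were ARID1A and STAG2 (higher with siRNA 6) and BAP1 (lower with siRNA 6). With DDX39A, 7 of 8 differed, all but MTOR, beside 50.6% of all genes. SARNP had 6 of 8, all but SETD2 and MTOR, beside 64.1%. FIBP had 3 (PBRM1, SETD2 and KDM5C) beside 35.7%, and TMEM259 had 2 (MTOR and STAG2) beside 32.1%. The siRNA pairs share controls, so only the direct differences between siRNAs are free of them.

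**Figure D5:**
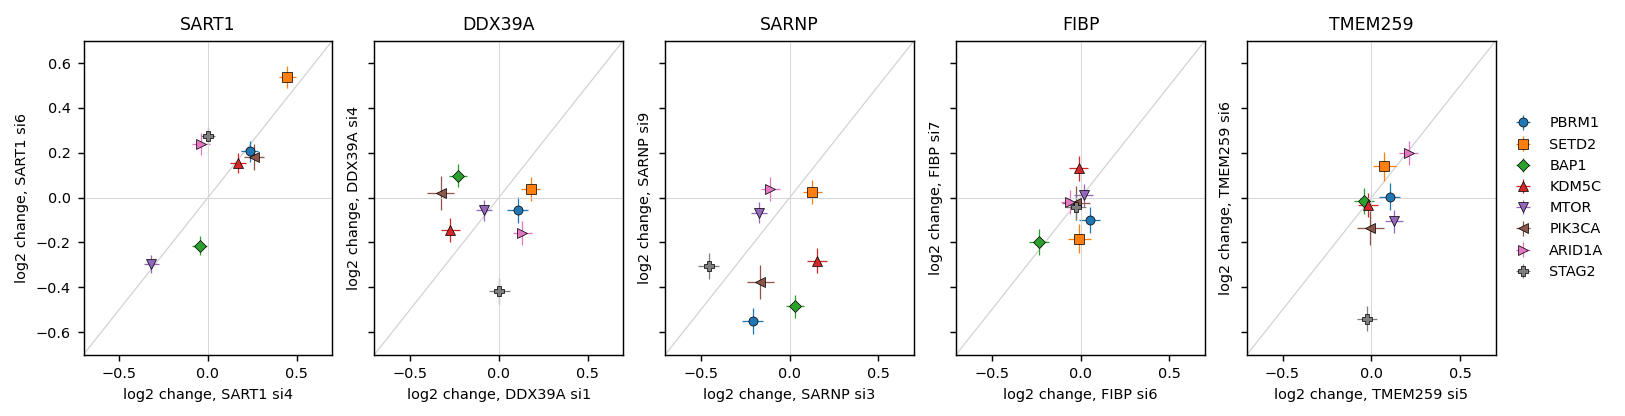
Log2 change of the driver genes with one siRNA of a target (x axis) and the other (y axis), 1 panel per target, with SE bars and the line of equal change. In the SART1 panel SETD2 and MTOR lie near the line at opposite ends, and in the TMEM259 panel STAG2 lies 0.52 below it.

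Other genes recurrently altered in renal carcinoma moved in both directions. Of 29 such genes, some of them also in the lists above, SART1 siRNA 4 raised 9 and lowered 4, and siRNA 6 raised 12 and lowered 8. Of all genes, 57.7% and 62.9% were called with these SART1 siRNAs. With DDX39A siRNA 1, 7 rose and 4 fell, and with siRNA 4, 11 rose and 8 fell, beside 33.2% and 49.0%. SARNP siRNA 3 raised 13 and lowered 7 (median log2 change 0.13), and siRNA 9 raised 12 and lowered 9, beside 41.3% and 58.4%. The FIBP and TMEM259 siRNAs raised 2 to 5 and lowered 2 to 9, beside 19.4% to 34.1%. The cyclin-dependent kinase inhibitor CDKN1A rose with the SARNP siRNAs from 598 to 1400.3 and 915 units (1.22 ± 0.07 SE and 0.61 ± 0.07 SE).

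The genes whose changes over the 10 siRNAs were most like those of each driver gene were sought among 11486 genes tested in all tables. The likeness was Pearson's r over 10 values that share 3 pairs of controls, so it is given as a description of these libraries. Choosing the 3 highest of 11486 genes gives a high r by itself, and how high was not tested. Pearson's r also leaves out the level of the changes. MRPS14, most like KDM5C, had log2 changes of -0.31 to 0.03, beside -0.28 to 0.17 for KDM5C. Most like PBRM1 were LZTFL1 (r of 0.956), PLK2 (0.952) and YWHAZ (0.947). SETD2 was most like ZNF14 (0.959), CADM1 (0.958) and RHEB (0.939). PIK3CA was most like MAGI1 (0.964), ATP6AP2 (0.955) and TRAM1 (0.946). For BAP1 they were PCTP (0.955), PLD3 (0.934) and CROCCP2 (0.909), and for KDM5C they were MRPS14 (0.958), CCDC66 (0.929) and TM7SF3 (0.925). For MTOR they were MOCOS (0.925), GATA2-AS1 (0.916) and DCXR (0.912), and for STAG2 they were TBC1D4 (0.913), FMNL2 (0.889) and ATP2B1 (0.889). ARID1A had the lowest values, with USP43 (0.869), PLA2G16 (0.863) and KIAA2026 (0.861). None of the 8 driver genes was among the 3 genes most like another.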

How the data were processed

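Poly(A) RNA of 26 libraries of 786-O cells was sequenced as paired ends of 42 bases from directional libraries, per the labels' protocols. The submitters' processing notes list hg19, STAR, Picard, HTSeq and DESeq2, with no versions or roles. The annotation and the strand setting are not given in the sources used here. Values are a normalized signal, which the authors made from gene counts with 1 size factor per library, as the deposited values show: they were whole multiples of 1 step in each library (within 0.001 of a read), so reads were recovered for all 26. Entries without a gene (7.36% to 30.5% of reads) were left out. The label "SARPN siRNA9" was taken as SARNP siRNA 9 and "FIPBkd6" as FIBP siRNA 6.

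The 3 tables were normalized apart and fitted apart. Genes with a mean of at least 10 were tested, 11823 in the SART1 table, 11673 beside DDX39A and SARNP, and 11768 beside FIBP and TMEM259. The test was limma 3.58.1 in R 4.3.3 on log2(value + 1), with a mean per group and eBayes with trend. That step joins a gene's own spread with the trend over all genes. The own spread had 3 residual degrees of freedom in the SART1 table and 5 in each other table. The trend counted for 20.5 (SART1), 31.8 (DDX39A and SARNP) and 38.4 (FIBP and TMEM259) degrees of freedom. P-values were two-sided and Benjamini-Hochberg adjusted over all genes of a table, and an adjusted p below 0.05 was called. Fits were tested on simulated data. Each result was recomputed with a pseudocount of 5, without the filter, with a mean of at least 50, after quantile normalization, with edgeR 4.0.16 (TMM) and DESeq2 1.42.0 on recovered reads, from the compared groups alone, with a replicate block, and leaving out each library in turn.

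The driver genes and partner lists were chosen with earlier results of these data known. Named genes were the driver genes, their paralogs, the knocked-down genes, up to 3 genes per list called in 1 direction by both siRNAs of a target with the largest mean change, and the 3 genes most like each driver gene. One result that this rule names is not reported here. Same-numbered libraries did not deviate together (correlations with the controls from -0.04 to 0.04), so numbers were not taken as pairs. Start regions came from RefSeq (GRCh38.p14).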

Additional observations from a re-analysis of the deposited data

Results flagged for a closer look

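The results below are driver genes whose change differed between the 2 siRNAs of 1 target by a direct limma test (log2 difference, Benjamini-Hochberg adjusted p below 0.05). Such differences were also called in 32.1% (TMEM259) to 64.1% (SARNP) of all genes, so a call here does not set the driver genes apart. No explanation was tested for them.

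For SART1, siRNA 6 minus siRNA 4, the differences were -0.17 for BAP1, 0.28 for ARID1A (0.280) and 0.28 for STAG2 (0.277). For DDX39A, siRNA 4 minus siRNA 1, they were -0.16 for PBRM1, -0.14 for SETD2, 0.33 for BAP1, 0.13 for KDM5C, 0.35 for PIK3CA, -0.29 for ARID1A and -0.42 for STAG2. BAP1 and PIK3CA were thus higher with siRNA 4, and STAG2 and ARID1A higher with siRNA 1.

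For SARNP, siRNA 9 minus siRNA 3, the differences were -0.34 for PBRM1, -0.52 for BAP1, -0.43 for KDM5C, -0.21 for PIK3CA, 0.15 for ARID1A (0.147) and 0.15 for STAG2 (0.150). For FIBP, siRNA 7 minus siRNA 6, they were -0.15 for PBRM1, -0.18 for SETD2 and 0.14 for KDM5C. For TMEM259, siRNA 6 minus siRNA 5, they were -0.23 for MTOR and -0.52 for STAG2.

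Of these 21 differences, 11 were called in all 12 alternatives. The like share over all genes is not given here. The 3 FIBP differences, the DDX39A differences of PBRM1, SETD2 and KDM5C, the SARNP differences of PIK3CA, ARID1A and STAG2, and the SART1 difference of BAP1 each lost their call in at least 1 alternative.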

How the results depend on the processing

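Of the 35 calls of a driver gene against controls, 24 were kept in all 12 alternatives, and no call reversed in any. Quantile normalization lost 2 and DESeq2 lost 5, and 18 of the 320 values recomputed without 1 library lost a call. Of these 320, 28 that were not called changed sign. The median change of all genes shifted by at most 0.02 (log2) under any scaling. With the replicate block all 80 driver gene values kept their call, and the counts of driver genes called stayed at 8 (SART1 siRNA 6), 5 (SARNP siRNA 9) and 2 (TMEM259 siRNA 6), and the numbers do not pair the libraries. The cause was not tested for any of the following.

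Counts that moved by over 1.5 times were these. DESeq2 called fewer genes: 2439 with DDX39A siRNA 1, 1541 and 2519 with FIBP siRNA 6 and siRNA 7, 1552 and 1246 with TMEM259 siRNA 5 and siRNA 6, against 3874, 2660, 4009, 2684 and 2282, and between siRNAs 2961 (SART1), 2621 (FIBP) and 2427 (TMEM259), against 4553, 4197 and 3776. Of partner genes DESeq2 called 38, 24, 37, 26 and 21 with those 5 siRNAs. Of driver genes it called 1 with DDX39A siRNA 4, 1 with FIBP siRNA 7, 4 between the DDX39A siRNAs and 0 between the FIBP siRNAs, against 3, 2, 7 and 3. With TMEM259 siRNA 5, edgeR and the fit of the compared groups alone called 2 driver genes, against 1.

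Without 1 library, driver genes called ranged from 1 to 2 (DDX39A siRNA 4), 2 to 5 (SARNP siRNA 3), 0 to 1 (FIBP siRNA 6), 1 to 2 (FIBP siRNA 7) and 0 to 2 (TMEM259 siRNA 5), and between siRNAs from 3 to 6 (SARNP) and 0 to 1 (FIBP). All genes called ranged from 1669 to 2168 (FIBP siRNA 6), 1514 to 1876 (TMEM259 siRNA 5), 1080 to 1716 (TMEM259 siRNA 6) and 2429 to 2984 (between TMEM259 siRNAs). Partner genes called ranged from 38 to 44 (DDX39A siRNA 1), 25 to 33 (FIBP siRNA 6), 26 to 32 (TMEM259 siRNA 5) and 14 to 25 (TMEM259 siRNA 6). A group left with 1 library was assumed to vary like the others.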
